A study of Mus musculus with 12 samples.

Results

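Notch signalling was followed through 10 genes of the 32285 measured, chosen by name: the receptors Notch1, Notch2 and Notch3, the ligands Jag1, Jag2 and Dll4, and the target genes Hes1, Hey1, Hey2 and Heyl. All 10 symbols were found in the count tables. The genes were measured by droplet single-cell RNA sequencing in fetal mouse gonads around embryonic day 12, at 23 ± 3 tail somites. There were 6 groups of 2 libraries each: XX WT, XX -KTS KO, XX +KTS KO, XY WT, XY -KTS KO and XY +KTS KO. The -KTS KO embryos were homozygous for an allele of Wt1 that cannot make the -KTS splice variant of this transcription factor. The +KTS KO embryos were homozygous for the mouse Frasier allele, which cannot make the +KTS variant. All groups had a mixed B6CBAF1/JRj background, the mutant alleles were constitutive, and the gonads had been dissected away from the mesonephros. Gonads of several embryos were pooled for -KTS KO libraries, so the spread between the libraries of these groups and of the others may not be comparable. The comparisons ask which Notch genes differ when one Wt1 variant is missing, in each sex.

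Notch receptors are membrane proteins that are cut when a Jagged or Delta-like ligand on a neighbouring cell binds them. The released intracellular part enters the nucleus, joins the DNA-binding protein RBPJ and Mastermind coactivators, and switches on genes of the Hes and Hey families, which encode basic helix-loop-helix repressors. In fetal gonads the pathway is known for limiting the differentiation of interstitial progenitors into Leydig cells, and in blood vessels for setting arterial identity.

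The 12 libraries held 108111924 to 147968666 unique molecular identifiers (UMIs) each, and 77000 cells were kept of 103730 barcodes. Graph clustering, run without Notch pathway genes, gave 32 clusters, which were named by their markers. Gonadal somatic cells numbered 66251: 12299 coelomic epithelial-like, 23374 interstitial-like, 5800 pre-supporting-like, 7945 pre-granulosa-like and 2974 Sertoli-like cells, and 13859 in 6 clusters without a name. The +KTS KO cells fell unevenly into these classes: XY +KTS KO replicate 1 held 3144 pre-granulosa-like cells and 203 without a name, while replicate 2 held 9 and 2987. In XX +KTS KO, 47 and 8 cells were pre-granulosa-like and 3961 and 1915 had no name. The study, with its own clusters, identified pre-granulosa cells in +KTS KO gonads of both sexes, in clusters apart from those of XX controls. The counts given here depend on the thresholds for naming clusters and do not show that such cells were missing. A further 2063 cells were endothelial-like and 7093 germ-like. No cluster was perivascular-like. In the gonadal somatic sums, Xist measured 536 to 748 CPM (UMIs of a gene per 1000000 UMIs of the summed cells) in XX and at most 0.171 CPM in XY libraries, while Ddx3y measured 40.8 to 63.2 CPM in XY and 0 in XX libraries. Wt1 was present at 158 to 309 CPM, but counts from the 3' end cannot tell its splice variants apart, so they do not check the genotypes. Of 102389 distinct barcode sequences, 1329 occurred in at least 2 libraries. XY +KTS KO replicate 1 stood apart: a list of 12 immediate early genes, written after the clusters had been seen, summed to 3316 CPM there, to 728 CPM in replicate 2 of the group and to 483 to 963 CPM in all 11 other libraries. Calls of named genes that rest on this library are given with and without it, and counts of other pathway genes only with it.

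Promoter sequences from RefSeq (GRCm38.p6) were at hand for 7 of the 10 genes, and none for Hes1, Hey1 and Heyl. Each window covers the 250 bases before the start site. They were searched on both strands for the RBPJ core TGGGAA, the EGR and WT1 motif GCGTGGG, the E box CACGTG and the N box CACNAG, to which Hes proteins bind. These letters occur in 21.6%, 4.30%, 6.02% and 36.7% of 32851 promoter windows of the same length. The windows of 3 genes whose levels are described below are shown, with matches in capitals. Notch3 is the receptor whose level differed most often between the groups, and its window (chr17:32166891-32167140, minus strand) holds 2 N boxes, at -204 and -159 from the start site. Hey2 is the only 1 of the 7 with the RBPJ core, at -207, and this match overlaps one to the EGR and WT1 motif at -205 (chr10:30842784-30843033, minus strand). Dll4, the ligand of the endothelial-like cells, has 1 N box at -75 (chr2:119325534-119325783, plus strand). The windows read, 5′ to 3′:

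Notch3: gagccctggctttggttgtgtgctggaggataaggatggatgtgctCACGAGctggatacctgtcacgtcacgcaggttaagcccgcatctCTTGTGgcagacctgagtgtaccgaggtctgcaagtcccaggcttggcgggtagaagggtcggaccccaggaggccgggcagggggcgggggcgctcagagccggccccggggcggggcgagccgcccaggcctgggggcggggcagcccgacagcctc

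Hey2: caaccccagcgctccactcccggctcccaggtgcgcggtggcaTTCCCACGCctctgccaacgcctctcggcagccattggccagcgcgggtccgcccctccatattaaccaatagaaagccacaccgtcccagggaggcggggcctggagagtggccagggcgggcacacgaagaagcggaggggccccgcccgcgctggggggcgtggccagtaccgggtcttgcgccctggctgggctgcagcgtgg

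Dll4: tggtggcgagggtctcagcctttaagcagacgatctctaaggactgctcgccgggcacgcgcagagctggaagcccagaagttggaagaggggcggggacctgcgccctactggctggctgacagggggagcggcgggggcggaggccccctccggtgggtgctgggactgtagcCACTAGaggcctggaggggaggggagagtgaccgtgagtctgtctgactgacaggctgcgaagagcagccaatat

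A match describes these letters only and does not show that a factor binds there. Of the 3 genes without an entry, Hes1 lies at chr16:30064384-30067796 on the plus strand, Hey1 at chr3:8663359-8667256 on the minus strand and Heyl at chr4:123233556-123249875 on the plus strand (GENCODE M21, GRCm38). All 10 genes are annotated as protein coding.

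The members divided between cell classes (the plot of levels by cell class). Levels are in CPM. They count 3' ends, and are compared between cells for 1 gene and never between genes. They are given as the lowest, median and highest library with at least 20 cells of the class, as a description without a test.

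Notch1, the receptor with the best-known role in arteries, was highest in endothelial-like cells, at 48.2, 78.9 and 98.6 CPM. Germ-like cells held 7.37, 12.1 and 18.6 CPM and the 2 XY WT libraries of Sertoli-like cells 4.93 and 5.16 CPM, while interstitial-like cells were at 1.30, 2.14 and 5.18 CPM. The endothelial-like range thus lay above those of germ-like, Sertoli-like and interstitial-like cells, without overlap. After each cell was thinned to 5000 UMIs, 31.3% of endothelial-like cells and 0.735% of gonadal somatic cells held a Notch1 UMI (59.2% and 2.08% before thinning, at median depths of 15692 and 12907 UMIs). Notch2 was low in endothelial-like cells. It measured 12.6, 18.2 and 27.3 CPM in coelomic epithelial-like cells, 13.9, 22.0 and 42 CPM in interstitial-like cells and 29.3 and 32.5 CPM in Sertoli-like cells, against 1.39, 2.28 and 3.99 CPM in endothelial-like cells. The ranges of the coelomic epithelial-like and interstitial-like cells overlapped each other, and both lay above the endothelial-like range. Notch3, a receptor known from mural cells of vessels, was highest in interstitial-like cells (3.49, 9.41 and 13 CPM) and coelomic epithelial-like cells (3.53, 6.4 and 12.6 CPM), with overlapping ranges. Pre-supporting-like cells held 0.586, 2.79 and 4.51 CPM of Notch3 and germ-like cells 0.439, 0.726 and 2.69 CPM.

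Dll4, the Delta-like ligand of tip cells and arteries, was found mostly in the endothelial-like cells. They held 1774 of its UMIs at 23.9, 47.2 and 106 CPM, while the 66251 gonadal somatic cells held 44 UMIs and at most 0.139 CPM in any library. With cells thinned to 5000 UMIs, 21.3% of endothelial-like, 0.0345% of germ-like and 0.0146% of gonadal somatic cells held a Dll4 UMI. The gonadal somatic and germ-like shares rest on 9 and 4 cells. Before thinning they were 0.0696% and 0.0401%, in the other order. Shares this low were not told apart from background. Jag2 was also highest in endothelial-like cells, at 8.71, 18.5 and 29.8 CPM, with 0.732 to 3.19 CPM in germ-like cells. Jag1, the ligand with the widest spread over classes, measured 1.2, 4.24 and 10.3 CPM in endothelial-like cells, 3.10 and 4.26 CPM in Sertoli-like cells and 0.935, 1.95 and 5.64 CPM in interstitial-like cells. The Jag1 ranges of these classes overlapped.

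Hes1, a general target of the pathway that other signals also switch on, was present in interstitial-like, coelomic epithelial-like and endothelial-like cells and low in germ-like and erythroid-like cells. Its median was 109 CPM in interstitial-like cells (55.6 to 239), 74.5 CPM in coelomic epithelial-like cells (33.0 to 131) and 85.8 CPM in endothelial-like cells (64.4 to 141), and these ranges overlapped. Germ-like cells held 3.05, 4.84 and 8.97 CPM, below every library of these 3 classes, and erythroid-like cells 0.455, 3.36 and 29.3 CPM. A Hes1 UMI was found in 30.9% of thinned gonadal somatic cells and in 2.32% of thinned germ-like cells (50.1% and 15.0% before thinning). Hey1, a target known from arterial endothelium, had its highest median in endothelial-like cells, at 30.1, 68.4 and 141 CPM. It was also present at 27.4, 34.3 and 44.8 CPM in germ-like, 15.1, 21.4 and 37.5 CPM in interstitial-like and 10.5, 19.2 and 28.2 CPM in coelomic epithelial-like cells. In pre-granulosa-like cells Hey1 ranged from 24.3 to 39.0 CPM, and in gonadal somatic cells without a name from 13.7 to 47.6 CPM. In both XY WT libraries germ-like cells, at 43.9 and 44.8 CPM, lay above endothelial-like cells, at 30.1 and 41.3 CPM. They also did in XY +KTS KO replicate 1 (35.7 against 32.7 CPM), and the 2 classes were nearly level in XX WT replicate 2 (33.3 against 33.9 CPM). In cluster 18 alone, the largest endothelial-like cluster, Hey1 measured 49.7 and 66.4 CPM in XY WT. There it measured 38.2 CPM in XY +KTS KO replicate 1 and 47.1 CPM in XX WT replicate 2. Each of these values lay above the germ-like value of its library. Heyl, a target known from mural and mesenchymal cells, was found in interstitial-like cells at 0.349, 2.87 and 5.91 CPM and in coelomic epithelial-like cells at 0, 1.32 and 4.96 CPM. It was at 0, 0.0854 and 0.704 CPM in endothelial-like cells and 0, 0.0434 and 0.189 CPM in germ-like cells. Hey2, which acts in arteries and heart, was low everywhere in this gonad, with 0.275, 1.29 and 2.31 CPM in interstitial-like and 0, 0.696 and 2.89 CPM in endothelial-like cells.

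**Figure D1:**
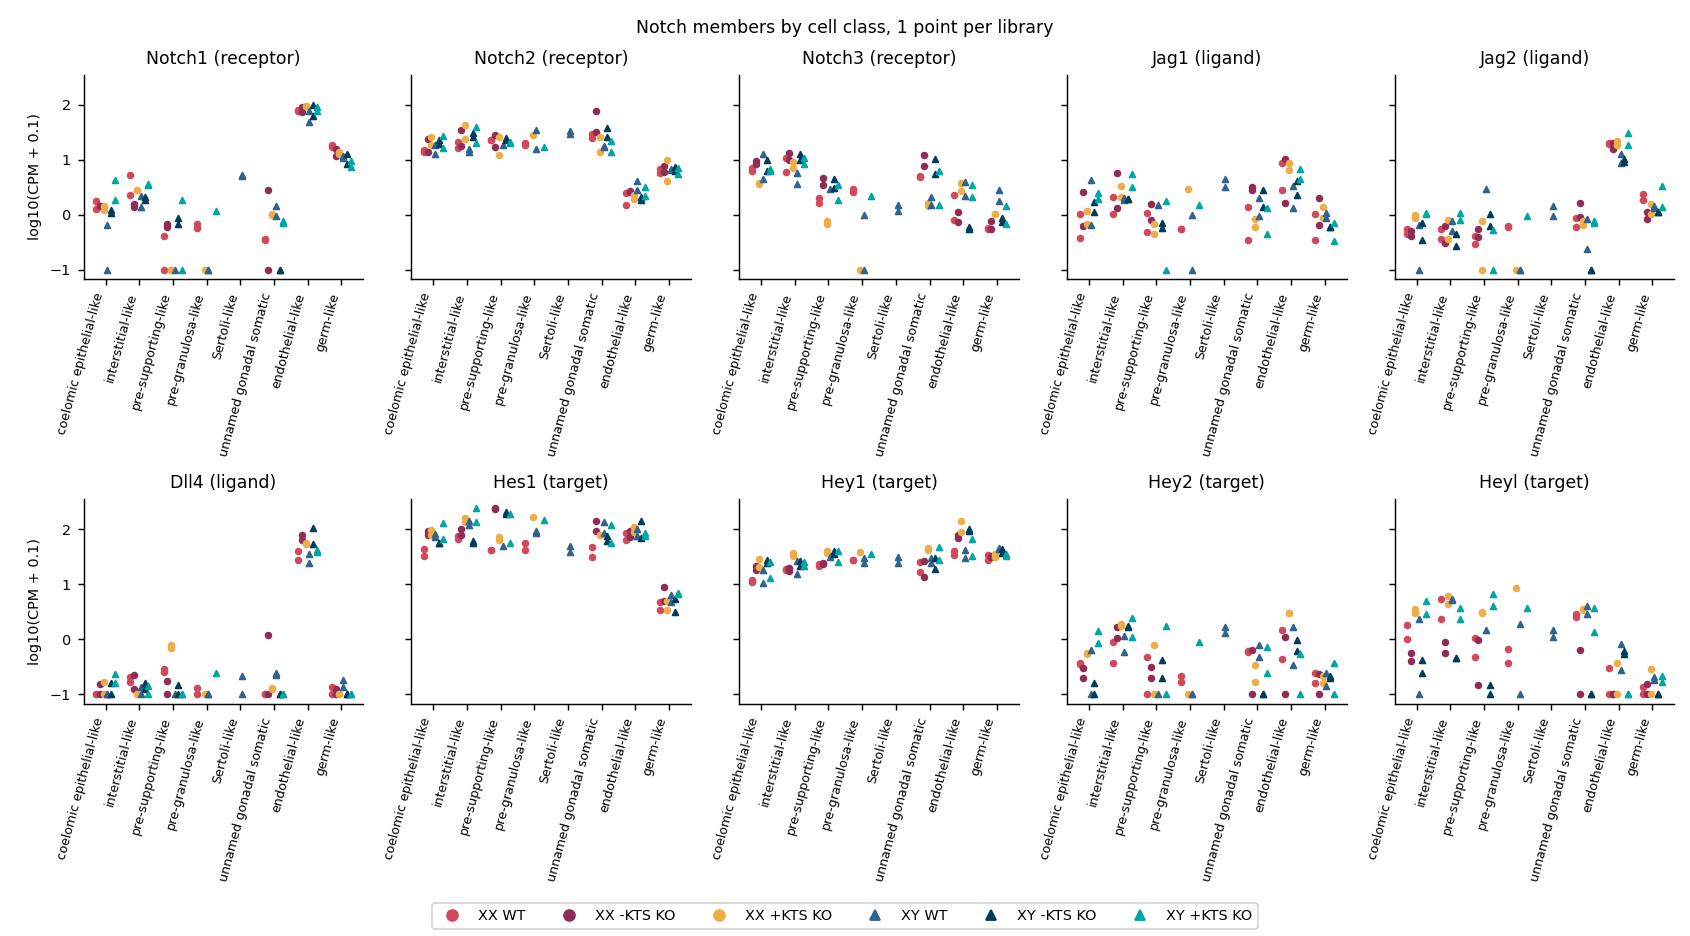
Level of each Notch gene in the cell classes, as log10 of CPM after adding the small constant given on the axis, 1 point per library with at least 20 cells of the class. Among the classes plotted, Dll4, Jag2 and Notch1 have their highest medians in the endothelial-like cells, Notch2 has its lowest median there, and Hes1 in the germ-like cells.

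The genes most like each member were found from Pearson's r over 45 profiles, each a group of cells of 1 class, among 11688 genes. The profiles share libraries and depths, so r is a description. The nearest genes of Dll4 were Prnd (r = 0.997), Sox7 (0.996) and Gpihbp1 (0.995), and those of Jag2 were Prex2 (0.969), Mmrn2 (0.969) and Epas1 (0.967). Sox7, Gpihbp1, Mmrn2 and Epas1 are known from endothelium. The nearest gene of Notch1 was Pcdh1 (0.961), of Hes1 Kdm6b (0.957), of Hey1 4921524J17Rik (0.931), of Notch2 D130020L05Rik (0.925), of Notch3 Efnb3 (0.920), of Heyl Tac2 (0.898) and of Jag1 Cdc42ep1 (0.878). For Hey2 no gene came near, the highest r being 0.666 for Tmem100.

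The groups were compared first in all gonadal somatic cells, whose UMIs were added up library by library. The test was the quasi-likelihood test of edgeR over 17713 genes, with Benjamini-Hochberg adjustment and a threshold of 0.05. In such sums, fewer cells of a type and less RNA per cell cannot be told apart. Of the members, 9 passed the filter on low counts and Dll4 did not. In XX -KTS KO against XX WT, 4 members rose (Notch3, Jag1, Hes1 and Hey2) and 1 fell (Heyl), which is 5 of 9 against 16.3% of all genes tested. The count was 0 without XX -KTS KO replicate 1 or XX WT replicate 2, 1 without XX WT replicate 1 and 4 without XX -KTS KO replicate 2, and 2 over all kept cells, with or without doublets. In XY -KTS KO against XY WT, Notch3 rose and Notch1 and Heyl fell, 3 of 9 against 23.5%. In XX +KTS KO against XX WT only Hey1 rose, 1 of 9 against 4.95%, and DESeq2 called 4 (Hes1, Hey1, Hey2 and Heyl). In XY +KTS KO against XY WT edgeR called 0 of 9 against 12.4%, with 1 at an unadjusted p under 0.05 and 0 by DESeq2.

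The mutants were also set against each other, with the same samples entering these contrasts as those above. In XX, the -KTS KO differed from the +KTS KO in Notch3 (higher), Hey1 and Heyl (lower), 3 of 9 against 18.6%, or 1 over all kept cells. In XY, Notch3 was higher and Heyl lower, 2 of 9 against 21.6%. Between the WT sexes, Notch1, Hes1, Hey2 and Heyl were higher in XY than in XX, 4 of 9 against 13.3%. This count was 0 to 2 with 1 library left out and 0 over all kept cells, germ-like and endothelial-like cells included, also with doublets, where the Notch1 difference was 0.03 and 0.10. For the effect of -KTS KO in XX against that in XY, edgeR called 0 of 9 members against 2.99% of all genes. Of the 9, 5 had an unadjusted p under 0.05. DESeq2 called 3, namely Hes1 (1.53, adjusted p = 0.00884), Jag1 (2.58, adjusted p = 0.0175) and Heyl (2.58, adjusted p = 0.00210). For +KTS KO, edgeR called 0 of 9 against 3.82%, with 3 at an unadjusted p under 0.05 and 0 by DESeq2. The members' median log2 fold change was 0.49 in XX -KTS KO (0.01 over all genes), -0.12 in XY -KTS KO (0.01), 0.66 in XX +KTS KO (0.00) and, for XY +KTS KO, 0.15 (0.05), or 0.18 without its replicate 1. It was 0.95 for XY WT against XX WT (-0.02).

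**Figure D2:**
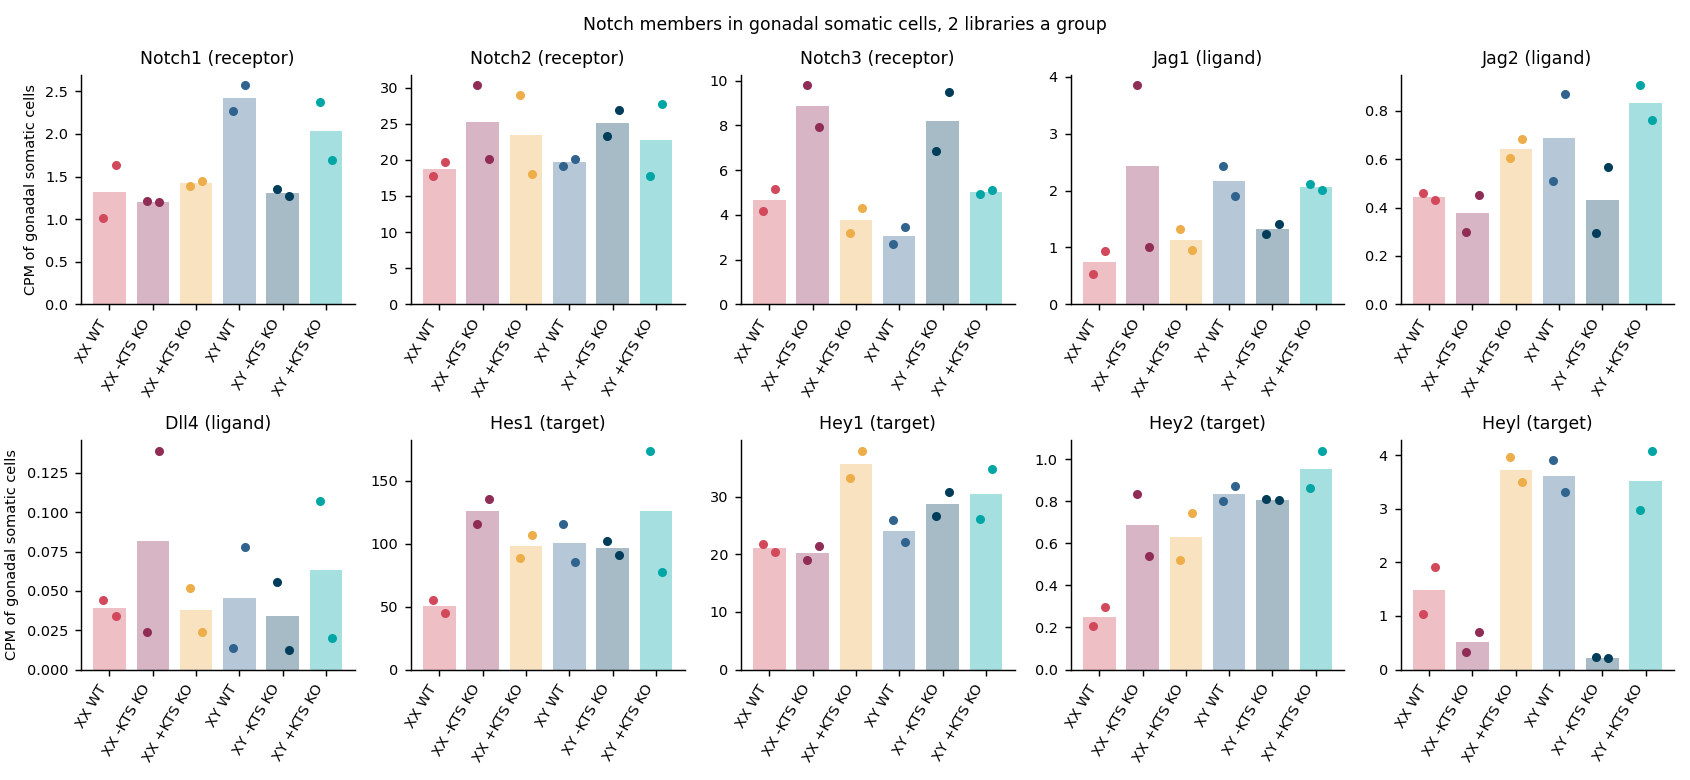
Level of the members in gonadal somatic cells (CPM), 1 point per library and bars at the mean of the 2 libraries of each of the 6 groups. Heyl is lowest in the 4 -KTS KO libraries, at 0.210 to 0.697 CPM, and Notch3 is highest in the same libraries, at 6.87 to 9.79 CPM.

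**Figure D3:**
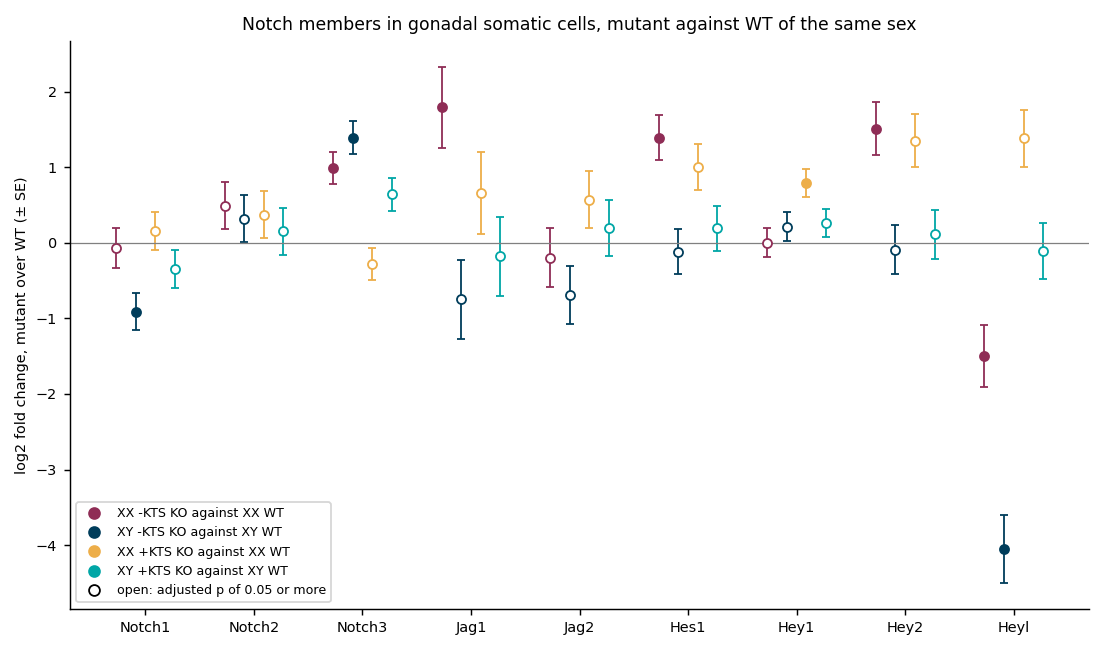
Log2 fold change of the 9 members tested in gonadal somatic cells, for the 4 comparisons of a mutant with WT of the same sex. Bars are the standard error derived from the F statistic of the test. Filled points passed the threshold of 0.05, and Heyl in XY -KTS KO lies farthest from 0, at -4.05.

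Among the receptors, Notch3 had higher counts in the -KTS KO of both sexes. It measured 4.18 and 5.16 CPM in XX WT, 9.79 and 7.95 CPM in XX -KTS KO and 3.21 and 4.30 CPM in XX +KTS KO. In XY it measured 2.69 and 3.44 CPM in WT, 6.87 and 9.5 CPM in -KTS KO and 4.94 and 5.13 CPM in +KTS KO. All 4 -KTS KO libraries thus lay above all 8 others. Against the WT of the same sex, the log2 fold change of -KTS KO was 0.99 ± 0.21 (SE, adjusted p = 0.0131) for XX and 1.39 ± 0.22 (adjusted p = 0.00186) for XY. Against the +KTS KO, Notch3 was higher by 1.27 ± 0.22 in XX (adjusted p = 0.00298) and by 0.75 ± 0.21 in XY (adjusted p = 0.0328). The XY -KTS KO call against WT and the XX call against +KTS KO held without any 1 of their 4 libraries. A group left with 1 library is then assumed to vary like the others. The XX -KTS KO call against WT was lost without XX -KTS KO replicate 1 (0.82, adjusted p = 0.0990), XX WT replicate 1 (0.87, 0.11) or XX WT replicate 2 (1.12, 0.0509). The XY call against +KTS KO was lost without XY -KTS KO replicate 2 (0.52, 0.192) or XY +KTS KO replicate 1 (0.63, 0.149). As Notch3 is known from mural cells, 8 perivascular markers were summed in the same cells. In XX they reached 74.8 and 72.5 CPM for WT, 36.3 and 50 CPM for -KTS KO, in XY 41.7 and 53.4 CPM for WT and 39.8 and 33.0 CPM for -KTS KO, with Higd1b at 0. Both -KTS KO libraries of each sex lay below both WT libraries of that sex. Interstitial-like cells, with the highest Notch3 median, were 1187 of 5353 and 991 of 5745 cells in XX WT. They were 2347 of 4395 and 1412 of 4085 in XX -KTS KO. In XY they were 4088 of 6747 and 1904 of 4703 in WT and 2563 of 5086 and 2225 of 4849 in -KTS KO. Within those of XX, Notch3 averaged 8.10 CPM in WT and 11.4 CPM in -KTS KO, without a call. The part of either cell type in the Notch3 difference was not tested.

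Notch1 was low in gonadal somatic cells and differed in XY. It measured 1.01 and 1.63 CPM in XX WT against 2.27 and 2.57 CPM in XY WT, without overlap, a log2 fold change of 0.95 ± 0.25 (adjusted p = 0.0359). In XY -KTS KO it measured 1.35 and 1.27 CPM, below both XY WT libraries, a log2 fold change of -0.91 ± 0.25 (adjusted p = 0.0271). Sertoli-like cells, of which XX WT had 0 and XY -KTS KO 2 and 0, held 103 of the 170 and 86 of the 165 Notch1 UMIs of the XY WT libraries. In interstitial-like cells Notch1 measured 2.20 and 5.18 CPM in XX WT, above both XY WT libraries at 1.30 and 2.09 CPM. There XY -KTS KO measured 1.96 and 1.77 CPM, with overlap with XY WT. The part of either class in the Notch1 differences was not tested. Neither call held up to leaving out libraries. The first was lost without XX WT replicate 1 (0.67, 0.217), XY WT replicate 1 (0.97, 0.14) or XY WT replicate 2 (0.93, 0.0926), and the second was lost without any 1 of its 4 libraries (adjusted p 0.0868 to 0.129). The XX -KTS KO (1.21 and 1.2 CPM) and XX +KTS KO libraries (1.39 and 1.45 CPM) lay between the XX WT libraries. Notch2 ranged from 17.7 to 30.3 CPM over the 12 libraries, and none of its comparisons passed the test.

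Among the ligands, only Jag1 passed a test. It measured 0.533 and 0.944 CPM in XX WT, 3.85 and 1.01 CPM in XX -KTS KO and 1.32 and 0.947 CPM in XX +KTS KO. In XY, Jag1 lay between 1.24 and 2.43 CPM in all 6 libraries. The XX -KTS KO libraries differed from each other by more than one of them differed from WT. The log2 fold change of 1.79 ± 0.54 in XX -KTS KO (adjusted p = 0.0497) fell to 0.50 without XX -KTS KO replicate 1 (adjusted p = 0.526) and was also lost without XX WT replicate 1 (1.46, 0.267) or XX WT replicate 2 (2.23, 0.103). Jag2 stayed between 0.293 and 0.905 CPM in all libraries and passed no test here.

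Among the targets, Heyl had the largest differences. It measured 3.90 and 3.31 CPM (292 and 213 UMIs) in XY WT and 0.237 and 0.210 CPM (17 and 17 UMIs) in XY -KTS KO. The 2 XY groups were far apart, with a log2 fold change of -4.05 ± 0.45 (adjusted p = 0.00032). In XX, Heyl measured 1.04 and 1.91 CPM in WT and 0.322 and 0.697 CPM in -KTS KO, again without overlap, a log2 fold change of -1.50 ± 0.41 (adjusted p = 0.0355). The +KTS KO libraries lay at 3.96 and 3.50 CPM in XX and 2.97 and 4.08 CPM in XY, so that XX +KTS KO lay above both XX WT libraries, though without a call by edgeR (1.38, adjusted p = 0.0751). DESeq2 called it, with an adjusted p of 0.0122. Set against the +KTS KO, the -KTS KO was lower by a log2 fold change of -2.88 ± 0.42 in XX (adjusted p = 0.00127) and -3.93 ± 0.45 in XY (adjusted p = 0.000321, and -4.23 with 0.000487 without XY +KTS KO replicate 1). XY WT exceeded XX WT by 1.37 ± 0.38 (adjusted p = 0.0428). The call in XY -KTS KO and both calls against +KTS KO held without any 1 of their 4 libraries. The call in XX -KTS KO was lost without XX -KTS KO replicate 1 (-1.03, 0.209) or XX WT replicate 2 (-1.03, 0.217), and the call between the WT sexes without any 1 of its 4 libraries (adjusted p 0.0655 to 0.235). The difference between the effects of -KTS KO in XX and in XY was 2.55 on the log2 scale. It missed the threshold by edgeR (adjusted p = 0.0522) and was called by DESeq2 (2.58, adjusted p = 0.00210). The summed level of the interstitial markers, the class in which Heyl was highest, was 487 and 467 CPM in XX WT against 897 and 701 CPM in the XX -KTS KO libraries. In XY it was 921 and 609 CPM for WT against 1013 and 804 CPM for -KTS KO, with overlap. The part of the interstitial-like cells in the Heyl differences was not tested.

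Hes1 measured 55.6 and 44.7 CPM in XX WT, 116 and 136 CPM in XX -KTS KO and 88.9 and 107 CPM in XX +KTS KO. In XY it measured 116 and 85.7 CPM in WT, 102 and 90.8 CPM in -KTS KO and 174 and 77.8 CPM in +KTS KO. XX WT was the lowest group, and both of its libraries lay below the other 10. The list of immediate early genes was also lowest in XX WT, at 523 and 483 CPM, with 631 CPM or more in every other library. The part of this in the Hes1 differences was not tested. The log2 fold change was 1.39 ± 0.30 in XX -KTS KO (adjusted p = 0.0139), and XY WT exceeded XX WT by 1.09 ± 0.30 (adjusted p = 0.0411). The first call was lost without any 1 of its 4 libraries (1.2 to 1.58, adjusted p 0.0511 to 0.0914), and the second without XX WT replicate 1 (1.29, 0.104), XX WT replicate 2 (0.91, 0.220) or XY WT replicate 1 (0.77, 0.269). The XX +KTS KO difference of 1.00 was not called by edgeR (adjusted p = 0.0980). XY +KTS KO replicate 1, with the highest Hes1, is also the library with 3316 CPM of immediate early genes, and the part of that in its Hes1 level was not tested.

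Hey1 was higher in XX +KTS KO, at 33.3 and 38 CPM against 21.8 and 20.4 CPM in XX WT and 19.1 and 21.4 CPM in XX -KTS KO. The XX +KTS KO libraries did not overlap with either group, with a log2 fold change of 0.79 ± 0.19 against WT (adjusted p = 0.0484) and, for -KTS KO against +KTS KO, -0.79 ± 0.19 (adjusted p = 0.0185). Both calls were lost without any 1 of their 4 libraries (adjusted p 0.134 to 0.274 and 0.0692 to 0.122), while the size stayed between 0.72 and 0.86 in either direction. The call against WT was also lost with RLE size factors (adjusted p = 0.0577), a replicate block (0.0651), all kept cells (0.0720) and doublets included (0.0804). The call between the mutants was lost with all kept cells (0.0602) and doublets included (0.0687). Hey1 in XY lay between 22.1 and 34.9 CPM with no call.

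Hey2, at 0.207 and 0.296 CPM (14 and 26 UMIs), was lowest in XX WT. It measured 0.836 and 0.541 CPM (70 and 31 UMIs) in XX -KTS KO and 0.802 and 0.871 CPM in XY WT, and every library outside XX WT held at least 0.520 CPM. The log2 fold change was 1.51 ± 0.35 in XX -KTS KO (adjusted p = 0.0172) and 1.79 ± 0.35 in XY WT against XX WT (adjusted p = 0.00944). In XY WT, the Sertoli-like cells, absent from XX WT, held 32 of the 60 and 21 of the 56 Hey2 UMIs. In interstitial-like cells Hey2 measured 0.275 and 0.787 CPM in XX WT and 0.490 and 1.04 CPM in XY WT, with overlap. The part of either class in the Hey2 difference between the sexes was not tested. The XX -KTS KO call was lost without XX -KTS KO replicate 1 (1.14, 0.130), XX WT replicate 1 (1.31, 0.128) or XX WT replicate 2 (1.76, 0.0583), and the call between the sexes without XX WT replicate 1 (1.59, 0.0821) or XY WT replicate 1 (1.78, 0.0526). XX +KTS KO measured 0.520 and 0.743 CPM, a difference of 1.35 that missed the threshold (adjusted p = 0.0566).

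A list of 47 other genes of the pathway (further receptors and ligands, the cleavage and glycosylation enzymes, trafficking proteins, the nuclear complex and other targets) was read in the same way, and 45 were tested. In XX -KTS KO, 3 rose and 5 fell, 17.8% of those tested against 16.3% of all genes. In XY -KTS KO, 8 rose and 10 fell, 40.0% against 23.5%. In XX +KTS KO, 2 rose and 1 fell (6.67% against 4.95%), and in XY +KTS KO 4 rose and 3 fell (15.6% against 12.4%). Between the WT sexes, 5 were higher and 2 lower in XY (15.6% against 13.3%). Against +KTS KO, 3 were higher and 10 lower in XX -KTS KO (28.9% against 18.6%), and 7 were higher and 10 lower in XY -KTS KO (37.8% against 21.6%). No test was made of these shares.

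Lfng, the Fringe enzyme that adds sugars to Notch receptors and changes which ligand they answer to, had the largest fall in XX -KTS KO. It measured 2.19 and 2.04 CPM in XX WT, 0.0836 and 0.122 CPM in XX -KTS KO and 7.08 and 7.40 CPM in XX +KTS KO. In XY it measured 4.25 and 3.45 CPM in WT, 0.0838 and 0.0495 CPM in -KTS KO and 9.57 and 7.38 CPM in +KTS KO. The 3 genotypes were therefore in 1 order in both sexes, without overlap. The log2 fold changes against WT were -4.32 in XX -KTS KO (adjusted p = 0.000117), -5.88 in XY -KTS KO (adjusted p = 7.53e-06), 1.81 in XX +KTS KO (adjusted p = 0.00345) and 1.03 in XY +KTS KO (adjusted p = 0.0171). Hes5, another Hes target, measured 6.92 and 6.11 CPM in XY WT, 0.104 and 0.102 CPM in XX WT and 0.0279 and 0.0618 CPM in XY -KTS KO. XY WT thus held the highest Hes5. The log2 fold change was -7.15 in XY -KTS KO (adjusted p = 4.73e-05) and -3.38 in XY +KTS KO (0.466 and 0.842 CPM, adjusted p = 0.00163, and -2.95 with 0.00490 without XY +KTS KO replicate 1), while XX +KTS KO rose by 2.79 over XX WT (0.749 and 0.647 CPM, adjusted p = 0.0131). The Lfng call in XY +KTS KO was lost without XY +KTS KO replicate 1 (0.94, 0.0500) or XY WT replicate 2 (0.83, 0.0823), and the Hes5 call in XX +KTS KO without any 1 of its 4 libraries (2.63 to 2.94, adjusted p 0.0589 to 0.11). The other calls of Lfng and Hes5 given here held without any 1 library. Fitted folds of genes with a few UMIs in a group depend on the prior count and are no bounds. Maml2, a Mastermind coactivator, rose in XX -KTS KO from 0.874 and 1.32 CPM to 4.72 and 3.17 CPM (1.91, adjusted p = 0.00264). Dlk1, a noncanonical ligand of the Delta-like family, rose there from 211 and 277 CPM to 744 and 467 CPM (1.38, adjusted p = 0.0142). The Dlk1 call was lost without XX -KTS KO replicate 1 (0.99, 0.111), XX WT replicate 1 (1.22, 0.117) or XX WT replicate 2 (1.55, 0.0532), and the Maml2 call held without any 1 library. Aph1b, a subunit of the gamma-secretase that cuts the receptors, was lower in XY +KTS KO at 6.22 and 5.43 CPM than in XY WT at 18.3 and 20.1 CPM (-1.81, adjusted p = 0.000200, and -1.81 with 0.00102 without XY +KTS KO replicate 1). This call held without any 1 library.

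The members were then compared within the coelomic epithelial-like and the interstitial-like cells (the plot of Hes1, Heyl and Notch3 within classes). Different clusters hold each class in different groups. Coelomic epithelial-like cells were mostly of cluster 7 in -KTS KO (96.1% in XX and 98.2% in XY), cluster 16 in WT (74.3% and 84.4%) and clusters 10 and 11 in +KTS KO (38.5% and 60.6% in XX). Interstitial-like cells were mostly of cluster 1 in -KTS KO (69.9% and 74.9%), of clusters 4, 6 and 23 in XX WT, clusters 4 and 8 in XY WT and cluster 6 in XX +KTS KO (64.7%). In XY +KTS KO, cluster 17, led by Btg2, Egr1 and Fos, held 45.4%. The XY WT libraries held only 62 and 195 coelomic epithelial-like cells.

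In coelomic epithelial-like cells, Hes1 measured 44.0 and 33.0 CPM in XX WT, 77.4 and 94.1 CPM in XX -KTS KO and 78.5 and 96.6 CPM in XX +KTS KO. Both mutants lay above WT, with log2 fold changes of 1.2 ± 0.24 (adjusted p = 0.0117) and 1.22 ± 0.24 (adjusted p = 0.0218). Hes1 was the 1 member of 9 called in each of these comparisons, against 6.86% and 2.07% of all genes. The -KTS KO call was lost without XX -KTS KO replicate 2 (1.07, 0.0929) or XX WT replicate 2 (0.98, 0.135), and the +KTS KO call without any 1 of its 4 libraries (adjusted p 0.0686 to 0.206). In XY -KTS KO and XY +KTS KO against XY WT edgeR called 0 of 9 (background 2.56% and 0.386%), with 1 at an unadjusted p under 0.05 in each and 0 by DESeq2. The 4 comparisons together, with 9 members tested in each, held 2 calls of a member against 2.97% of all tests. The difference of the mutant effects between the sexes was called by edgeR for 0 genes, with 1 member for -KTS KO and 2 for +KTS KO at an unadjusted p under 0.05 and 0 by DESeq2.

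Between the mutants, XX -KTS KO coelomic epithelial-like cells had higher Notch3 (1.29, adjusted p = 0.00842) and lower Heyl (-3.05, adjusted p = 0.00237) than XX +KTS KO, 2 of 9 against 16.9%. The Notch3 call was lost without XX -KTS KO replicate 1 (1.15, 0.0768), XX +KTS KO replicate 1 (1.29, 0.0730) or XX +KTS KO replicate 2 (1.29, 0.0655). In XY, 4 of 9 were lower in -KTS KO than in +KTS KO, against 24.0%, and DESeq2 called 3, without Notch1 (adjusted p = 0.0542). Heyl measured 0.317 and 0.143 CPM in XY -KTS KO and 2.75 and 4.96 CPM in XY +KTS KO (-4.12 ± 0.59, adjusted p = 0.0004, and -4.53 with 0.000114 without XY +KTS KO replicate 1). Hey2 was nearly absent from the XY -KTS KO cells, with 1 and 0 UMIs against 11 and 45 UMIs (adjusted p = 0.00142, and 0.000767 without XY +KTS KO replicate 1). With clusters made at a resolution of 1.2 instead of 0.8, the Hey2 call was lost (-2.40, adjusted p = 0.139). Notch1 (-1.42, adjusted p = 0.0283) and Hes1 (-0.80, adjusted p = 0.0275) were called too. Both were lost without XY +KTS KO replicate 1 (-0.84, 0.169 and -0.36, 0.219), without XY -KTS KO replicate 1 (-1.57, 0.0969 and -0.82, 0.109) and without XY -KTS KO replicate 2 (-1.26, 0.161 and -0.78, 0.117). The Notch1 call was also lost with clusters at a resolution of 0.4 (-1.06, adjusted p = 0.0801) or 1.2 (-0.53, adjusted p = 0.589). Between the WT sexes edgeR called 0 of 9 against 0.0896%, with 1 at an unadjusted p under 0.05 and 0 by DESeq2.

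In interstitial-like cells, Heyl was lower in the -KTS KO of both sexes. It measured 2.20 and 5.31 CPM in XX WT and 0.468 and 0.773 CPM in XX -KTS KO, and 5.20 and 5.07 CPM in XY WT against 0.351 and 0.349 CPM in XY -KTS KO. The groups did not overlap in either sex. The log2 fold change was -2.52 ± 0.46 in XX (adjusted p = 0.00984), the 1 member of 9 called against 7.49% of all genes, and -3.96 ± 0.48 in XY (adjusted p = 0.000636). The XX call was lost without XX -KTS KO replicate 1 (-2.21, 0.107) or XX WT replicate 2 (-1.84, 0.0602). In XY, 3 of 9 members were called against 17.6%. Besides Heyl, Notch3 rose from 3.49 and 5.70 CPM to 9.71 and 12.5 CPM (1.19 ± 0.30, adjusted p = 0.0239) and Hes1 fell from 142 and 117 CPM to 61.3 and 55.6 CPM (-1.26 ± 0.23, adjusted p = 0.00514). The Notch3 call was lost without XY -KTS KO replicate 1 (1.34, 0.0521), XY -KTS KO replicate 2 (1.01, 0.139) or XY WT replicate 1 (0.92, 0.162).

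Hes1 in the interstitial-like cells of XX measured 67.1 and 74.5 CPM in WT and 77.3 and 102 CPM in -KTS KO, a log2 fold change of 0.42 (adjusted p = 0.301). Its effect of -KTS KO in XX minus that in XY was 1.68 and missed the threshold (adjusted p = 0.123), so the effects were not shown to differ. No member was called for this difference (0 of 9 by edgeR against 0.0327%, 2 at an unadjusted p under 0.05, 1 by DESeq2) or for that of +KTS KO (0 of 9 against 0.334%, 4 and 0). Over the 4 comparisons of mutant with WT together, with 9 members tested in each, the class held 4 calls of a member against 8.55% of all tests. In the +KTS KO, Hes1 measured 134 and 159 CPM in XX and 239 and 136 CPM in XY. No member was called by edgeR in XX +KTS KO (0 of 9 against 0.982%, 3 at an unadjusted p under 0.05, 2 by DESeq2), XY +KTS KO (0 of 9 against 8.13%, 4 and 0) or XY WT against XX WT (0 of 9 against 1.96%, 3 and 1). Against +KTS KO, Heyl was lower in -KTS KO of XX (-3.05, adjusted p = 0.00178, 1 of 9 against 12.7%) and XY (-3.02, adjusted p = 0.00241). In XY Hes1 was also lower (-1.64, adjusted p = 0.00121), 2 of 9 against 13.7%. Without XY +KTS KO replicate 1 these XY values were -3.37 (adjusted p = 0.00271) for Heyl and -1.27 (adjusted p = 0.00434) for Hes1.

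**Figure D4:**
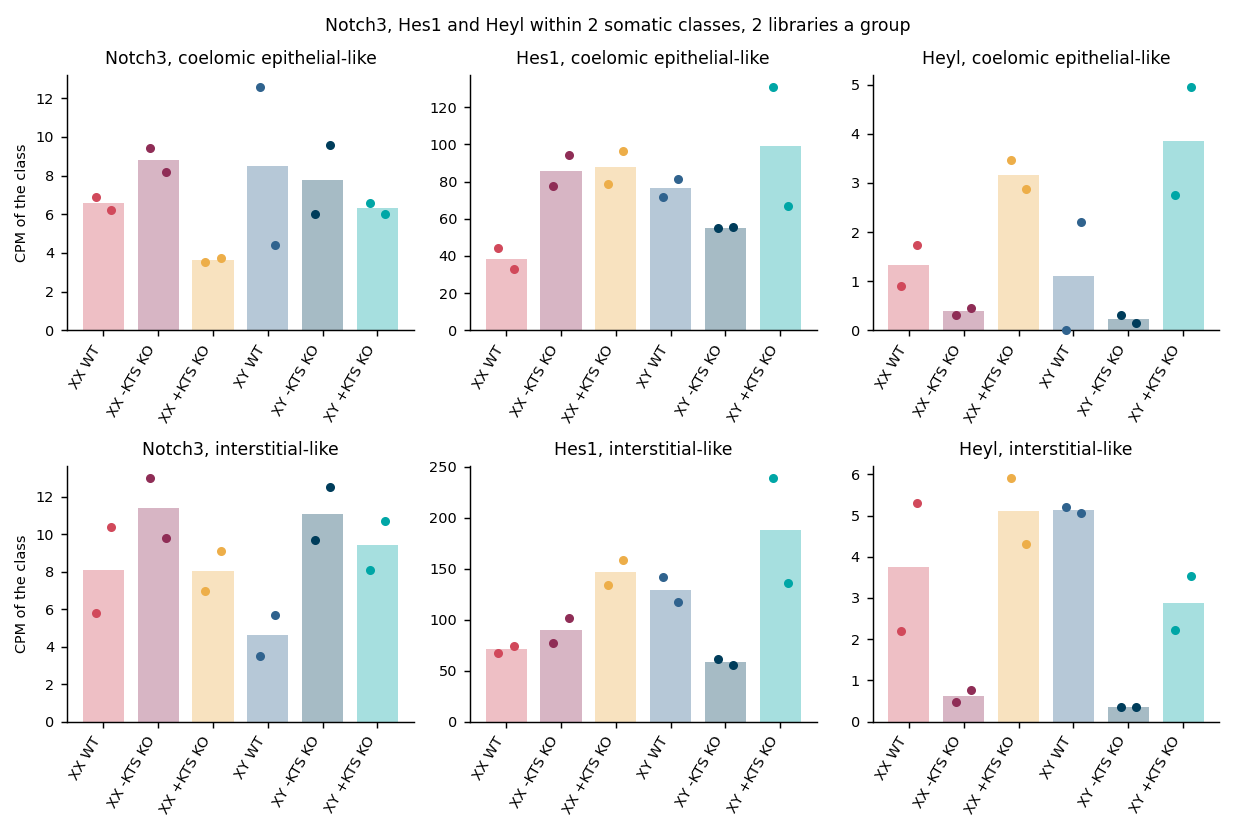
Level (CPM) of Notch3, Hes1 and Heyl within the coelomic epithelial-like and the interstitial-like cells, 1 point per library, with bars at the mean of the 2 libraries of a group. In interstitial-like cells the 4 -KTS KO libraries hold 0.349 to 0.773 CPM of Heyl, below the 8 others.

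In pre-supporting-like cells, given as a description because the class is unevenly filled, Hes1 measured 42.4 and 42.3 CPM in XX WT, 234 and 239 CPM in XX -KTS KO and 64.4 and 72.7 CPM in XX +KTS KO. In XY it measured 50.2 CPM in WT replicate 2 (53 cells, replicate 1 having only 8), 202 and 186 CPM in -KTS KO and 189 and 55.3 CPM in +KTS KO, the higher value being that of replicate 1. The 4 -KTS KO libraries and XY +KTS KO replicate 1 thus lay at 186 CPM or more, and the other 6 libraries given here at 72.7 CPM or less. XY +KTS KO replicate 1 held 43 cells of the class. Over gonadal somatic cells, the 5 pre-supporting markers summed to 1394 and 1197 CPM in XX WT and 347 and 383 CPM in XX -KTS KO. In XY they summed to 702 and 1004 CPM in WT and 513 and 483 CPM in -KTS KO. Whether the class holds like cells in each group was not tested.

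In endothelial-like cells, 7 members were tested, and Notch2, Hey2 and Heyl did not pass the filter. Dll4 measured 23.9 and 35.0 CPM in XY WT and 53.1 and 106 CPM in XY -KTS KO, and Hey1 30.1 and 41.3 CPM against 91.5 and 101 CPM. Both were higher in XY -KTS KO without overlap, with log2 fold changes of 1.51 ± 0.28 (adjusted p = 0.00538) and 1.52 ± 0.30 (adjusted p = 0.00819), 2 of 7 against 7.05%. Hey1 was higher in XX +KTS KO (90.5 and 141 CPM) than in XX WT (39.7 and 33.9 CPM), by 1.72 ± 0.30 (adjusted p = 0.0334), 1 of 7 against 0.214%. Jag2 was higher in XY +KTS KO (29.8 and 18.3 CPM) than in XY WT (8.71 and 12.4 CPM), by 1.09 ± 0.24 (adjusted p = 0.0266), 1 of 7 against 3.34%, a call that DESeq2 did not make (adjusted p = 0.0774). In XX -KTS KO edgeR called 0 of 7 against 0.755%, with 2 at an unadjusted p under 0.05 and 2 by DESeq2. There Dll4 measured 78.7 and 63.8 CPM against 40.4 and 27.9 CPM in XX WT, without overlap. Hey1 measured 79.3 and 70.3 CPM against 39.7 and 33.9 CPM, also without overlap. The 4 comparisons of mutant with WT together, with 7 members tested in each, held 4 calls of a member against 2.84% of all tests. For the difference of the mutant effects between the sexes edgeR called 0 of 7 for -KTS KO against 0.177% (0 at an unadjusted p under 0.05, 0 by DESeq2) and 0 of 7 for +KTS KO against 0.0186% (2 and 0).

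The clusters that make up the class differed between the groups. Cluster 26, led by Etv2, Clec1b and Cldn5, held 46.8% of the XY WT endothelial-like cells, while cluster 18 held 53.2% of them, 80.0% in XX WT and 94.1% to 100% in the mutant groups. Within cluster 18 alone, a comparison added after seeing the data, none of the 4 calls against WT was kept. There Dll4 in XY -KTS KO was 0.87 (adjusted p = 0.169), Hey1 in XY -KTS KO 0.86 (adjusted p = 0.183), Hey1 in XX +KTS KO 1.31 (adjusted p = 0.259) and Jag2 in XY +KTS KO 0.65 (adjusted p = 0.752). XY WT then measured 39.5 and 55.3 CPM of Dll4 and 49.7 and 66.4 CPM of Hey1, above its values over the whole class. For Hey1 in XX, cluster 18 held 55.1 and 47.1 CPM in WT and 91.9 and 142 CPM in +KTS KO, still without overlap. In XY, Hey1 in -KTS KO (91.5 and 101 CPM) and Jag2 in +KTS KO (32.1 and 18.3 CPM against 12.7 and 17.6 CPM in WT) also did not overlap with WT there, while Dll4 in -KTS KO (53.1 and 106 CPM) did. The part of the makeup of the class in these differences was not tested further. Leaving out libraries also ended these calls. Dll4 was lost without XY -KTS KO replicate 2 (0.96, 0.0854) or XY WT replicate 1 (1.31, 0.0841), Hey1 in XY without XY WT replicate 1 (1.36, 0.101), and Hey1 in XX +KTS KO without any 1 of its 4 libraries (adjusted p 0.133 to 0.417). Jag2 was lost without XY +KTS KO replicate 1 (0.87, 0.0791) or XY WT replicate 1 (0.90, 0.347). With XY +KTS KO replicate 2 as the lone library of its group (66.5 CPM), Hey1 passed the threshold in XY +KTS KO (0.97, adjusted p = 0.0368), which rests on the spread of the other groups.

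Between the XY mutants, endothelial-like cells of -KTS KO had lower Jag2 (10.2 and 9.15 CPM against 29.8 and 18.3 CPM, -1.13 ± 0.28, adjusted p = 0.0398) and higher Dll4 (53.1 and 106 CPM against 38.2 and 41.4 CPM, 1.11 ± 0.28, adjusted p = 0.0467), 2 of 7 against 3.33%. Both ligands thus differed without overlap, in opposite directions. In cluster 18 alone the values were -1.16 (adjusted p = 0.0309) and 1.05 (adjusted p = 0.0444). DESeq2 did not call Jag2 (adjusted p = 0.108). The calls were lost without XY +KTS KO replicate 1 (-0.89, 0.201 for Jag2 and 0.96, 0.243 for Dll4) and without XY -KTS KO replicate 2 (-1.06, 0.131 and 0.53, 0.310), and Jag2 also without XY -KTS KO replicate 1 (-1.22, 0.128). In XX -KTS KO against XX +KTS KO edgeR called 0 of 7 against 0.438% (1 at an unadjusted p under 0.05, 0 by DESeq2), and in XY WT against XX WT 0 of 7 against 1.12% (2 and 0). Notch1 in endothelial-like cells ranged from 48.2 to 98.6 CPM with no call. Endothelial markers summed to 4031 CPM in these cells and perivascular markers to 80.7 CPM.

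**Figure D5:**
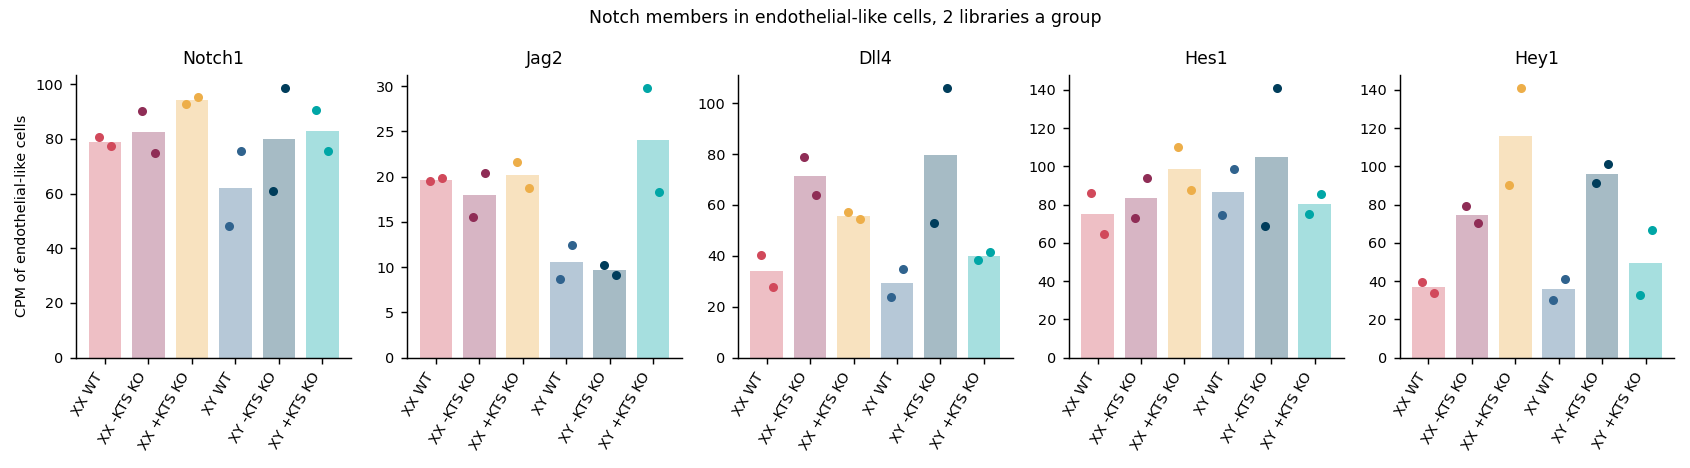
Level (CPM) of members in endothelial-like cells, 1 point per library, with bars at the mean of the 2 libraries of a group. The means of Dll4 and Hey1 are lowest in XX WT and XY WT, the groups with the smallest shares of cluster 18.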

How the data were processed

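The unit of analysis was the library, with 2 per group. The UMI counts per gene and barcode were deposited by the authors, who made them with Cell Ranger 6.0 on mm10 (per the labels), without normalization. The labels name version 2 and the study's methods version 3 of the reagent kit. Barcodes with under 1000 genes or over 10% mitochondrial UMIs were left out (83513 passed). The barcodes with the top Scrublet scores (0.8% of each library per 1000 barcodes, 7447 in all, scanpy 1.11.5) were dropped, because the threshold set by Scrublet itself gave 3 calls or fewer in 9 libraries. Residuals of sctransform 0.4.2 for the 3000 most variable genes, without Notch pathway genes, gave 50 components and a graph of 20 neighbours, clustered with Seurat 5.3.0 at a resolution of 0.8. Clusters were named from marker lists by thresholds that were chosen once the clusters had been seen.

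UMIs of a class were summed for each library, scaled by TMM (factors 0.927 to 1.09), filtered with filterByExpr and fitted over 6 groups with edgeR 4.0.16 (R 4.3.3), with Benjamini-Hochberg adjustment over all genes and calls at 0.05. Adjusted p-values in the text are from this test unless another tool is named, and the pair in parentheses after a left-out library is the log2 fold change and the adjusted p. With 2 libraries a group, p-values measure only the spread between libraries, shared over the 6 groups, and a group left with 1 library is assumed to vary like the others. Alternatives were DESeq2 1.42.0, RLE factors, no filter, a replicate block, only the groups compared, all kept cells, doublets included, other clusterings and leaving out each library. On simulated data with the settings of XX -KTS KO against XX WT (17713 genes), the test found 67.6% of genes changed 4-fold, 18.8% of those changed 2-fold and 0.8% of those changed 1.5-fold. For XY -KTS KO against XY WT it found 68.4%, 21.6% and 1.6%. Of the calls in the 2 simulations, 6.03% and 7.6% were of unchanged genes. Far fewer genes were changed there than were called in the data, and the adjustment depends on that number. The shares found are therefore no estimates of what the test finds in the data. The members, the pathway list and the markers were chosen with earlier results of these data known. The genes named are the 10 members, the nearest genes by r, and some of the 4 pathway genes with the largest called changes in each comparison. Before shares of cells were taken, cells were thinned to 5000 UMIs and shallower ones dropped.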

Additional observations from a re-analysis of the deposited data

How the results depend on the processing

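With 2 libraries a group, leaving out 1 library moved the count of members called to 0 to 4 in XX -KTS KO, 2 to 2 in XY -KTS KO, 0 to 0 in both +KTS KO against WT, 2 to 3 and 1 to 2 for -KTS KO against +KTS KO in XX and XY, 0 to 2 between the WT sexes, 0 to 1 and 0 to 0 for the difference between the sexes of the -KTS KO and +KTS KO effects, and 0 to 2, 3 to 5 and 1 to 4 over the comparisons of mutant with WT in coelomic epithelial-like, interstitial-like and endothelial-like cells. For XX -KTS KO (5 called), 3 were called with only the groups compared and 2 with all kept cells or with doublets included. For XX +KTS KO (1 called), DESeq2 called 4, no filter 3 and only the groups compared 3, while RLE factors, all kept cells, doublets included and the replicate block called 0. For XX -KTS KO against +KTS KO (3 called), all kept cells and doublets included each gave 1, and for XY (2 called) only the groups compared gave 1. Between the WT sexes (4 called), all kept cells and doublets included gave 0, with Notch1 at 0.03 and 0.10. For the -KTS KO effect in XX against XY (0 called), DESeq2 and no filter gave 3 and only the groups compared 1. In coelomic epithelial-like cells (2 calls) no filter and a resolution of 1.2 gave 6. In interstitial-like cells (4 calls) DESeq2 gave 7, no filter 16 and a resolution of 0.4 gave 8. In endothelial-like cells (4 calls) no filter gave 7, and the largest cluster alone, chosen after seeing the data, 0. The causes were not tested, other than that all kept cells and doublets included add cells of other classes. The counts under other settings, here and above, stand without the share of all genes called in the same setting. They therefore do not set the members against all genes. Of 39 calls of a member under 489 settings in all, 368 kept their direction and side of the threshold, 121 lost the call and 0 turned. Of 180 class levels under other clusterings, 174 moved by less than the spread between libraries. Of 110 shares of cells with a UMI, 99 moved by more than their counting error when the cells were not thinned, so a share holds for its depth only. Replicate numbers did not pair the libraries (r of deviations -0.214 to 0.165, 4 of 15 pairs of groups over 0.1). With the replicate block 4 members were called in XX -KTS KO, 3 in XY -KTS KO and 3 between the WT sexes. The block ended the calls of Jag1 in XX -KTS KO (1.66, adjusted p = 0.0762) and Notch1 between the WT sexes (0.95, adjusted p = 0.0518). Most changes of 2-fold or less were not recovered at this depth and number of libraries in the simulation. It changed far fewer genes than were called in the data.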

Other observations

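Notch4, a receptor known from endothelium, measured 19.8, 46.6 and 56.3 CPM (lowest, median and highest library) in endothelial-like cells and 2.23, 3.45 and 4.98 CPM in gonadal somatic cells, without overlap. Aph1b was, among the pathway genes, also higher in XY WT than in XX WT, at 18.3 and 20.1 CPM in XY WT and 6.47 and 6.55 CPM in XX WT (log2 fold change 1.63, adjusted p = 0.000198 by edgeR's quasi-likelihood test), and this call held without any 1 library. Dll1, a Delta-like ligand, measured 0.749 and 0.762 CPM in XY WT and 0.0888 and 0.205 CPM in XX WT (2.40, adjusted p = 0.00969), which was lost without XX WT replicate 1 (1.98, 0.0801) or XY WT replicate 1 (2.35, 0.0567). Mfng, another Fringe enzyme, measured 0.0978 and 0.0495 CPM in XY -KTS KO and 1.10 and 1.09 CPM in XY +KTS KO (adjusted p = 0.0148). Without XY +KTS KO replicate 1 its log2 fold change was -3.93. The call was lost without XY -KTS KO replicate 1 (log2 fold change -4.40) or replicate 2 (log2 fold change -3.39).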
